A study of Mus musculus with 42 samples.

Results

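The genes of the interleukin-1 (IL-1) family and its receptors were followed in synovial fibroblasts of arthritic mice, across every treatment and genotype studied. Members were the probe sets whose listed gene symbol was Il1a, Il1b, Il1rn, Il1r1, Il1rl1, Il1rap or Il33. The rule found 13 probe sets of 6 genes among 34958 probe sets that name exactly 1 gene (18194 genes). Il1a, Il1b and Il33 had 1 probe set each, Il1r1 had 2, Il1rn had 3 and Il1rap had 5. No probe set was listed for Il1rl1, the receptor of IL-33, which is not analysed here.

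The study measured messenger RNA on 42 arrays, each from 1 culture of synovial fibroblasts, with the aim of comparing treated with untreated cells of a genotype and the genotypes under the same treatment. All cells came from female BALB/c mice in which arthritis had been raised with cartilage proteoglycan and the adjuvant DDA (dimethyldioctadecyl-ammonium bromide), so no group came from a healthy joint. The cells were kept for up to 6 passages and put into 0.5% serum overnight. They were then left untreated or exposed for 12 h to 1 of 5 treatments. TNFa was given at 5 ng/ml and lipopolysaccharide (LPS) at 200 ng/ml. TSG-6, a hyaluronan-binding protein that TNFa and IL-1 induce, was given at 120 ug/ml as the recombinant mouse protein, hyaluronan (HA) at 24 ug/ml, and both together at those doses. Wild-type (WT) groups had 5 untreated cultures and 2 for each treatment. Cultures labelled as lacking Tnfaip6, which encodes TSG-6, are called KO. They had 8 untreated cultures, 3 with TSG-6 and 4 for each other treatment. The labels call the cultures biological replicates and do not say how many mice they came from, so p-values measure the spread between these cultures.

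IL-1 alpha (Il1a) and IL-1 beta (Il1b) are inflammatory cytokines that bind the receptor Il1r1, which then recruits the accessory chain Il1rap and signals through Myd88 to NF-kB. Il1rn encodes the receptor antagonist, which occupies Il1r1 without recruiting Il1rap. IL-33 (Il33) is a nuclear alarmin of stromal and endothelial cells whose receptor also uses Il1rap. Synovial fibroblasts are known as strong responders to IL-1, and macrophages as its main producers in the inflamed joint.

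The sequences before the starts of a ligand, the antagonist, the receptor and the alarmin are shown because the results turn on these genes. RefSeq promoter entries (GRCm38.p6) were found for all 6 genes measured, with 10 starts in all. In that build Il1a lies at chr2:129299609-129310186, Il1b at chr2:129364569-129371164, Il1rn at chr2:24336860-24351491, Il1r1 at chr1:40222480-40316201, Il1rap at chr16:26581509-26730128 and Il33 at chr19:29925113-29960718. Which transcripts each probe set reads is not known here. Each window holds the 250 bases upstream of a listed start, 5′ to 3′ on the gene's strand. Capitals mark motif matches on either strand: TGANTCA for AP-1, TTNNGNAAT for C/EBP, TATAAA for the TATA box, and the NF-kB consensus by name. Of 32851 such windows, 6.75% held the AP-1 motif, 10.2% C/EBP, 12.4% the TATA box and 7.25% NF-kB. Shown are the start of Il1b, the first start of Il1rn, the second start of Il1r1 and both starts of Il33.
Il1b, chr2:129371140-129371389, - strand: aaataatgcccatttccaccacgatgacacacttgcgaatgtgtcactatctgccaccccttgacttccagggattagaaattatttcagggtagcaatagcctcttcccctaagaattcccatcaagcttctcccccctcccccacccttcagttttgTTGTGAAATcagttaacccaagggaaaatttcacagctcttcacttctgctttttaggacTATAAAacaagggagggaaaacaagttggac
Il1rn start 1, chr2:24336610-24336859, + strand: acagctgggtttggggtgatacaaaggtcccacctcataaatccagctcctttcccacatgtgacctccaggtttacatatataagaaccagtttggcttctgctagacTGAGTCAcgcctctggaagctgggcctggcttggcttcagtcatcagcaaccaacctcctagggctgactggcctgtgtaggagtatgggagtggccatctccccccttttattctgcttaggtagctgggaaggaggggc
Il1r1 start 2, chr1:40266336-40266585, + strand: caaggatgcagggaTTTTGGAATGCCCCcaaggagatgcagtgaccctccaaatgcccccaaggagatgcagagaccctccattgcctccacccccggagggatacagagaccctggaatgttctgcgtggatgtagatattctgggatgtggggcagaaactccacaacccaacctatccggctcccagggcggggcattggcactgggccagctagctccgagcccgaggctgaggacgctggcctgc
Il33 start 1, chr19:29924863-29925112, + strand: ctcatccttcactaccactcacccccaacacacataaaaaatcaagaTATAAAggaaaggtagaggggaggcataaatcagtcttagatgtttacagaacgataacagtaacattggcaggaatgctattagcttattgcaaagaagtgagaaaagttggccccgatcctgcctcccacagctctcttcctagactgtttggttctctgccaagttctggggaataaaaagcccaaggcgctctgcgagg
Il33 start 2, chr19:29945540-29945789, + strand: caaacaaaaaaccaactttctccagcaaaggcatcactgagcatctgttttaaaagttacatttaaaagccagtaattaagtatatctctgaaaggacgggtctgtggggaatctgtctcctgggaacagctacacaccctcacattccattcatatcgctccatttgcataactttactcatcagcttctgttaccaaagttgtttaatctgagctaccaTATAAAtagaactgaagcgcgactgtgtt

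Il1b held a C/EBP match and a TATA box, the latter at -31 to -26 counted back from the start. The last bases of its window lie within the gene as annotated. Il1rn start 1 held an AP-1 match at -141 to -135. In Il1r1 start 2 the single run of capitals is an NF-kB match on the minus strand (-232 to -223) that overlaps a C/EBP match (-236 to -228). Both starts of Il33 held a TATA box, at -203 to -198 and at -29 to -24. Among the windows not shown, Il1a held a TATA box and an AP-1 match, Il1rn start 3 and Il1r1 start 1 each held a C/EBP match, and Il1rap and Il1rn start 2 held none of the 4 motifs. A match says only that these letters are present.

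Values are log2 signals from which each probe set's median over the 42 arrays had been subtracted. A value of 0 is thus that probe set's own median, and levels cannot be compared between genes. Probe sets outside the family split the arrays of each genotype into 2 sets of cultures, with every treatment present in both. These are called culture sets a and b here (8 and 7 WT arrays, 14 and 13 KO arrays), and no label explains them. The letters were given within each genotype, a to the set of its first array, so equal letters need not correspond between genotypes. An 18S ribosomal RNA probe set lay more than 1 above its median on 15 arrays, 5 WT and 10 KO, and all 5 of the WT arrays were in set b. The Tnfaip6 probe set was 0.26 ± 0.16 (SE) higher in untreated KO than WT cultures (adjusted p = 0.229, limma). Where it lies relative to the deleted part is not known here, so it does not check the labels. Endothelial markers differed more between the genotypes than any member did: their mean over 10 genes lay between 3.08 and 3.88 on WT arrays and between -1.48 and 0.29 on KO arrays. In untreated cultures 9 of the 10 were lower in KO cells, among them Tie1 (-5.42) and Cdh5 (-3.79). The 18 myeloid genes had group means between -0.14 and 0.20, but of these Lyz1 (-1.48), Lyz2 (-1.58) and Coro1a (-0.84) were lower and Laptm5 (0.34) higher in untreated KO cells. Centred values cannot show whether any marker was absent. In such bulk samples, fewer cells of a type and less RNA per cell cannot be told apart.

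TNFa gave the clearest responses of the family, and they lay in the antagonist and the accessory chain rather than in the IL-1 genes themselves. In WT cells TNFa lowered Il1rn (2 of 3 probe sets) and raised Il1rap (1 of 5). In KO cells it raised Il1rap (3 of 5 probe sets). The WT differences rest on single TNFa cultures. Without replicate 2 those of Il1rn went from -1.59 and -1.35 to -0.89 and -1.08. Without replicate 1 that of Il1rap went from 0.76 to 0.33. Under quantile normalization, or in a fit of the compared groups alone, no member passed for TNFa in WT cells. Neither Il1a nor Il1b passed the test in any of the 10 treatment responses. Across the 10 responses, 6 of 130 pairs of probe set and treatment passed an adjusted p of 0.05 (limma, Benjamini-Hochberg over all 34958 probe sets), and all 6 were responses to TNFa. Responses of 1 genotype share their untreated cultures. Per comparison, TNFa called 3 of 13 member probe sets in WT cells against 2.07% of all probe sets, and 3 of 13 in KO cells against 12.5%. The 3 KO calls came from 1 gene of 6, Il1rap. With 1 probe set per gene, 14% of all genes passed there, so nothing is read from the KO count.

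The remaining 8 responses called no member, beside small shares of all probe sets in most of them. LPS called 0.938% of all probe sets in WT and 1.38% in KO cells, TSG-6 0.283% and 4.38%, HA 0.0887% and 0.4%, and TSG-6 with HA 0.584% and 8.6%. At an unadjusted p below 0.05 (limma), 15 member values passed in these 8 comparisons of 13 member probe sets each. Of all 34958 probe sets, between 1220 and 7145 passed likewise in a comparison. The most did so under TSG-6 with HA in KO cells, where 4 of the 13 members passed. The plot of each member by array shows these values, and the plot of responses shows TNFa and LPS side by side.

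**Figure D1:**
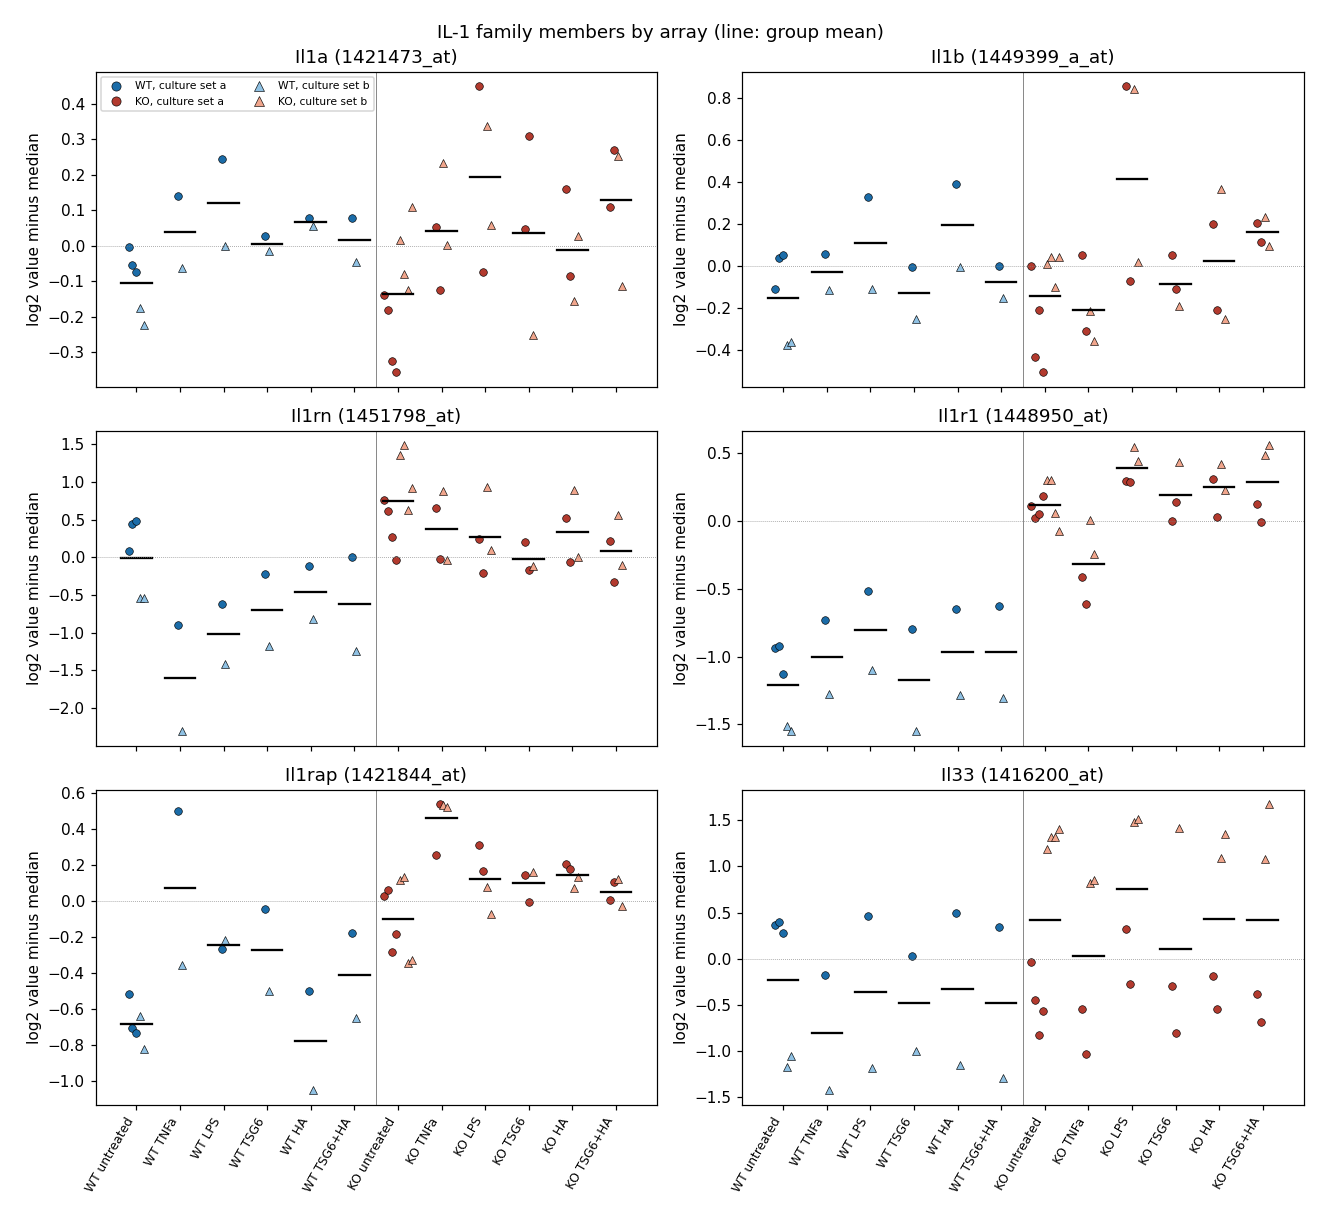
Log2 value minus the probe set's median (y axis) on every array of the 12 groups (x axis) for 1 probe set of each member gene; circles are culture set a, triangles set b, and lines are group means. Il33 separates by culture set in both genotypes, whose set letters need not correspond. Il1r1 lies lower on WT than on KO arrays of the same condition. Under cyclic loess normalization (not plotted) the mean KO minus WT difference of Il1r1 falls below 0 in 5 of 6 conditions, past the threshold under TNFa only.

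**Figure D2:**
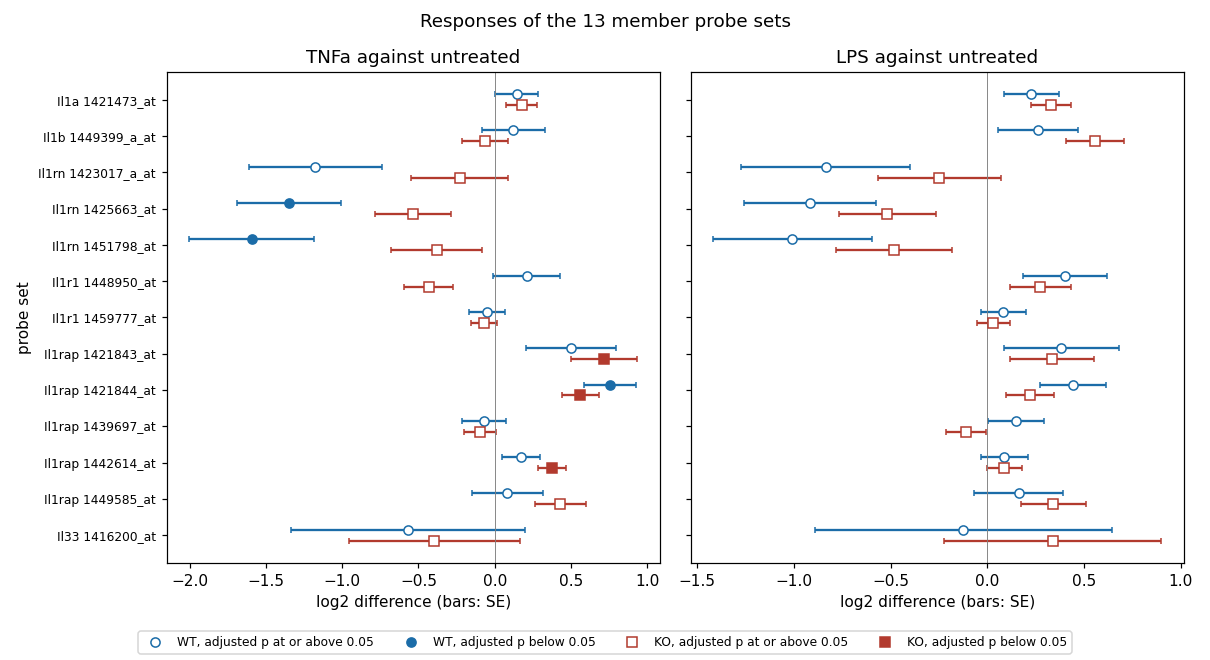
Log2 difference from untreated cultures (x axis, bars SE) for the 13 member probe sets (y axis) under TNFa and LPS, in WT (circles) and KO (squares) cells; filled symbols have an adjusted p below 0.05. Filled symbols appear under TNFa only, for Il1rn in WT cells and Il1rap in both genotypes.

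Il1a, which is kept partly in the cell that makes it, varied little, with an SD of 0.18 over all arrays. Untreated WT cultures read -0.0031, -0.05, -0.07, -0.18 and -0.22, and the pair given LPS read 0.24 and -0.0018. Untreated KO cultures ran from -0.36 (median -0.13) to 0.11, and those given LPS read 0.45, -0.07, 0.34 and 0.06. The WT pair lay just above all untreated WT values, while the KO groups overlapped. The LPS difference was 0.23 ± 0.14 (SE) in WT (adjusted p = 1) and 0.33 ± 0.10 in KO cells (adjusted p = 0.126, limma). All 10 responses were positive, between 0.11 and 0.33, and none passed the test. No neighbours in the order of the 12 group means differed by more than both their SDs.

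Il1b, the secreted form that caspase-1 matures, was highest in KO cells given LPS. These 4 cultures read 0.86, -0.07, 0.84 and 0.02, against a lowest of -0.50, a median of -0.05 and a highest of 0.05 in untreated KO cultures. Replicates 1 and 3 stood above every untreated culture and the other pair lay among them. The difference was 0.55 ± 0.15 (SE), 1.47-fold, with an adjusted p of 0.0534 (limma), just outside the threshold. The high pair had 18S values of -0.01 and -0.45, and the low pair 2.46 and 3.81. Without all arrays above the 18S limit, the difference was 1.03 (adjusted p = 0.00371, limma) for Il1b and 0.57 (adjusted p = 0.0193) for Il1a. The part of the 18S signal in this was not tested. A fit with culture set as a block gave the same Il1b difference of 0.55 an adjusted p of 0.0162 (limma), and called 3.13% of all probe sets. Of 18 myeloid marker genes none passed under LPS in KO cells, and of 8 neutrophil genes 1 did, Camp, at 0.90. The neutrophil list's mean ran from -0.33 to 0.16 over untreated and from 0.11 to 0.39 over LPS-treated KO cultures, and its part was not tested. In WT cells the LPS pair read 0.33 and -0.11, the first above and the second within the untreated range of -0.37 to 0.05. The difference there was 0.26 ± 0.21 (adjusted p = 1, limma).

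**Figure D3:**
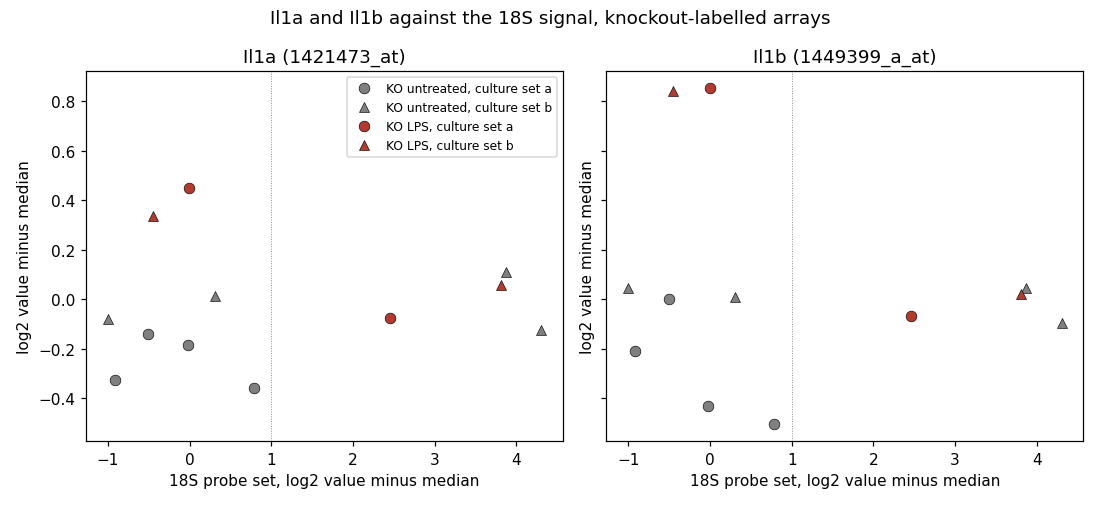
Il1a and Il1b values (y axes) against the 18S probe set on the same array (x axes), both as log2 value minus median, for untreated (grey) and LPS-treated (red) KO cultures; circles are culture set a, triangles set b, and the dotted line is the 18S limit of 1. The 2 LPS arrays left of the line have Il1b values of 0.86 and 0.84, and the 2 right of it -0.07 and 0.02.

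Under TNFa the same KO cells read 0.05, -0.31, -0.21 and -0.35 for Il1b. Set directly against LPS, Il1b was 0.62 ± 0.17 (SE) lower under TNFa, 1.53-fold (adjusted p = 0.04, limma). The groups overlapped at their edges. Leaving out TNFa replicate 2, 3 or 4, or LPS replicate 1 or 3, ended the call. Without LPS replicate 1 the difference was -0.47 (adjusted p = 0.212), and without LPS replicate 3 it was -0.48 (adjusted p = 0.215). This comparison called 2 of 13 member probe sets beside 2.92% of all. The other member was Il1r1. In WT cells the same comparison called no member, beside 0.275% of all probe sets.

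Il33 values fell apart by culture set rather than by treatment. In WT cells every array of set a (-0.18 to 0.49) was above every array of set b (-1.42 to -0.99). In KO cells every array of set b (0.82 to 1.67) was above every array of set a (-1.03 to 0.32). It was the sole member whose arrays separated completely by set in either genotype. Of all 34958 probe sets 8.08% separated by set in WT cells and 0.378% in KO cells, and 40 probe sets (0.114%) did so in both. The mean difference of set a from set b was 1.45 in WT and -1.72 in KO cells. Its size exceeded that of 99.8% of all probe sets in WT and 99.9% in KO cells. The sets were found from probe sets of other genes and are described without a test.

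The endothelial list moved with the sets too. Its mean was 3.65 in WT set a and 3.31 in set b, and -0.10 in KO set a and -1.32 in set b. Fibroblast markers (15 genes) had means of -0.04 and -0.34 in WT sets a and b, and of -0.06 and 0.12 in the KO sets. The part of either in the Il33 values was not tested. By these means, KO set b had more Il33, less endothelial and more fibroblast signal than set a. In WT cells set a had more of all of them.

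Within a set, Il33 read lower under TNFa in most cultures. In WT set a the TNFa culture read -0.18 against 0.37, 0.40 and 0.28 untreated, and in set b -1.42 against -1.17 and -1.05. In KO set b the 2 TNFa cultures read 0.82 and 0.85 against 1.19, 1.31, 1.31 and 1.40 untreated. In KO set a they read -0.54 and -1.03, and 4 untreated cultures read -0.03, -0.44, -0.82 and -0.56. The TNFa cultures lay below all untreated ones in 3 of the 4 genotype sets and overlapped them in KO set a.

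Without regard to set, the TNFa difference in Il33 was -0.57 ± 0.77 (SE) in WT (adjusted p = 1) and -0.40 ± 0.56 in KO cells (adjusted p = 0.755, limma). The culture sets are not labelled and were found from these same arrays, which p-values blocked on them do not allow for. Blocking on culture set, the TNFa difference was -0.42 ± 0.18 in WT (adjusted p = 0.324), a fit that called 3.71% of all probe sets. In KO cells it was -0.40 ± 0.13 and passed (adjusted p = 0.0384), beside 16.8% of all probe sets. Set against LPS in the same way, Il33 in TNFa-treated KO cells was lower by 0.73 ± 0.16 (adjusted p = 0.00188), beside 5.21% of all probe sets. In these fits no other response of Il33 passed.

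Il1rn had the widest treatment differences of the family, and all 30 estimates, of 3 probe sets in 10 responses, were below 0. Responses of a genotype share its untreated cultures, so these signs are not separate results. Il1rn passed only under TNFa in WT cells. The 3 probe sets rose and fell together over the arrays, with Pearson r between 0.89 and 0.97 over 42 arrays that share genotype and culture set. For probe set 1451798_at, untreated WT cultures read 0.09, 0.44, 0.49, -0.54 and -0.54, and the TNFa pair read -0.90 and -2.31. For 1425663_at they read 0.00, 0.05, 0.27, -0.67 and -0.66, and the TNFa pair -1.28 and -1.82. Both TNFa cultures lay below all 5 untreated ones on all 3 probe sets, which are not separate results. Such separation also occurred without a call: under LPS in WT cells 7 member probe sets had no overlap with untreated cultures, and 0 were called. The share of all probe sets that separate in this way is not given here, so nothing is read from the separation alone.

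TNFa lowered Il1rn in WT cells by 1.59 ± 0.41 (SE) on the log2 scale at 1451798_at, 3.02-fold (adjusted p = 0.0265, limma), and by 1.35 ± 0.34 at 1425663_at, 2.55-fold (adjusted p = 0.0233). The third probe set, 1423017_a_at, gave -1.17 ± 0.44 (adjusted p = 0.26). Both calls rest on WT TNFa replicate 2, an array with an 18S value of 3.55: without it they were -0.89 (adjusted p = 1) and -1.08 (adjusted p = 0.59). They were also lost under quantile normalization, in a fit of these 2 groups alone, and without several other single arrays, in 9 of 22 and 9 of 21 alternatives. Cldn5, an endothelial tight-junction gene, was the sole marker of 10 on that list to pass in this comparison, at -1.20 (adjusted p = 0.00308). The myeloid gene Aif1 (0.83, adjusted p = 1.15e-05) and the neutrophil gene Camp (1.37, adjusted p = 1.87e-09) rose there too, 1 of 18 and 1 of 8 on their lists, and the part of these markers was not tested. In the fit with a culture set block both stayed past the threshold, at -1.50 (adjusted p = 0.000767) and -1.27 (adjusted p = 0.000846).

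In KO cells TNFa gave -0.54 ± 0.25 (SE) at 1425663_at (adjusted p = 0.18, limma) and -0.38 ± 0.30 at 1451798_at (adjusted p = 0.501). At 1425663_at the 4 cultures read 0.14, 0.08, 0.52 and -0.09, within the untreated range of 0.05 (median 0.73) to 1.33 except for the last. The block on culture set gave the same -0.54 an adjusted p of 0.0362.

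Under LPS the WT values of Il1rn were low as well. The pair read -0.62 and -1.42 at 1451798_at, below all 5 untreated cultures, and the difference was -1.01 ± 0.41 (adjusted p = 0.568, limma), which missed the threshold. In KO cells the 3 cultures given TSG-6 read -0.00, -0.10 and -0.17 at 1425663_at, below all 8 untreated ones, and those given TSG-6 with HA read 0.17, -0.34, 0.34 and -0.19. The differences were -0.79 ± 0.28 (adjusted p = 0.107, limma) and -0.70 ± 0.25 (adjusted p = 0.0772). Under the block on culture set these passed, at -0.74 (adjusted p = 0.0176) and -0.70 (adjusted p = 0.00661). Those fits called 7.42% and 12.7% of all probe sets. At 1451798_at the block gave -0.67 for TSG-6 with HA (adjusted p = 0.0308).

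Between the genotypes, the Il1rn difference was above 0 at all 3 probe sets in all 6 conditions, and 9 of these 18 values passed, all with the higher level in KO cultures. These comparisons called between 15.5% and 33.8% of all probe sets. The 18 values come from 1 gene whose probe sets rose and fell together, so they are not separate results. Under TNFa it was 3.93-fold higher at 1451798_at (1.98 ± 0.42, adjusted p = 0.000577, limma), 3.28-fold at 1425663_at (1.71 ± 0.35, adjusted p = 0.000359) and 3.02-fold at 1423017_a_at (1.60 ± 0.45, adjusted p = 0.00896). The KO TNFa cultures read 0.66, -0.02, 0.87 and -0.03 at 1451798_at, all above the WT pair at -0.90 and -2.31. Without WT TNFa replicate 2 that difference was 1.27 (adjusted p = 0.114) and the one at 1423017_a_at 1.26 (adjusted p = 0.183). The one at 1425663_at remained past the threshold in each fit that left out 1 array. Quantile normalization ended all 3 calls, at 1.44 (adjusted p = 0.071), 1.19 (adjusted p = 0.0642) and 1.20 (adjusted p = 0.241) in the order given.

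In untreated cultures Il1rn was 0.90 ± 0.23 higher in KO cells at 1425663_at (adjusted p = 0.00216, limma) and 0.76 ± 0.28 at 1451798_at (adjusted p = 0.0314). The groups overlapped at both. The first was lost under cyclic loess normalization, at 0.46 (adjusted p = 0.128), and the second without WT untreated replicate 4 or 5, at 0.63 (adjusted p = 0.113) and 0.63 (adjusted p = 0.114). Under LPS all 3 probe sets passed, with differences of 1.24, 1.30 and 1.29, and none of them passed without WT LPS replicate 2 (0.84, 1.20 and 0.89). The first, at 1423017_a_at, was lost in 11 of 17 alternatives. Under TSG-6 with HA only 1425663_at passed, at 1.02 (adjusted p = 0.0394), and it was 0.30 (adjusted p = 0.781) without WT TSG-6 with HA replicate 2. It was lost in 8 of 17 alternatives.

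Il1r1, the signalling receptor, was the member that divided the genotypes most clearly. At 1448950_at, untreated WT cultures read -0.94, -0.92, -1.13, -1.51 and -1.55, and untreated KO cultures ran from -0.08 (median 0.08) to 0.30. No KO array of any condition fell as low as a WT array of the same condition. The difference in untreated cells was 1.33 ± 0.15 (SE), 2.51-fold (adjusted p = 3.15e-09, limma), although it became -0.05 under cyclic loess normalization, as described with the alternatives. The other Il1r1 probe set, 1459777_at, had an SD of 0.12 and showed -0.03 ± 0.08 (adjusted p = 0.845), so the pair of probe sets disagreed.

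The 1448950_at difference was 0.69 ± 0.23 under TNFa (adjusted p = 0.026, limma), 1.20 under LPS, 1.36 under TSG-6, 1.21 under HA and 1.25 under both, each past the threshold. With untreated cells included, cyclic loess turned 5 of the 6 differences below 0, and of those only the one under TNFa (-0.65) passed. The TNFa value was 0.29 (adjusted p = 0.427) under quantile normalization and rests on single arrays: it was 0.42 (adjusted p = 0.44) without WT TNFa replicate 2 and 0.58 (adjusted p = 0.0892) without KO TNFa replicate 3. Endothelial markers went the other way in every condition, with a median probe set difference of -4.09 in untreated, -4.03 in TNFa-treated and -3.96 in LPS-treated cells. Of 8 neutrophil markers 2 passed in untreated cells, Camp (2.34) and S100a8 (1.83), both higher in KO cultures, and the others did not pass. The mean of that list was -0.64 in untreated WT and -0.07 in untreated KO cultures. Of the fibroblast markers 6 of 15 were higher and 5 lower in untreated KO cells, among them Prg4, the lubricin gene (4.41), and Cd55 (-2.46). The part of these lists and of the myeloid genes in the Il1r1, Il1rn and Il1rap differences was not tested.

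Many probe sets outside the family also differed between the genotypes. Untreated KO and WT cultures differed at 33.8% of all probe sets and at 4 of 13 member probe sets. Under TNFa they differed at 20.1% of all and at 4 of 13, and under LPS at 19.9% and 4 of 13. Under TSG-6 the figures were 15.5% and 1 of 13, under HA 19.3% and 2 of 13, and under both 17.8% and 2 of 13. These counts are near what the background shares give, so nothing is read from them. The 17 calls came from 3 genes, Il1r1, Il1rn and Il1rap, and all had the higher value in KO cultures in the fit described here. Of all 11803 probe sets called in untreated cells 6266 were higher in KO cultures.

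**Figure D4:**
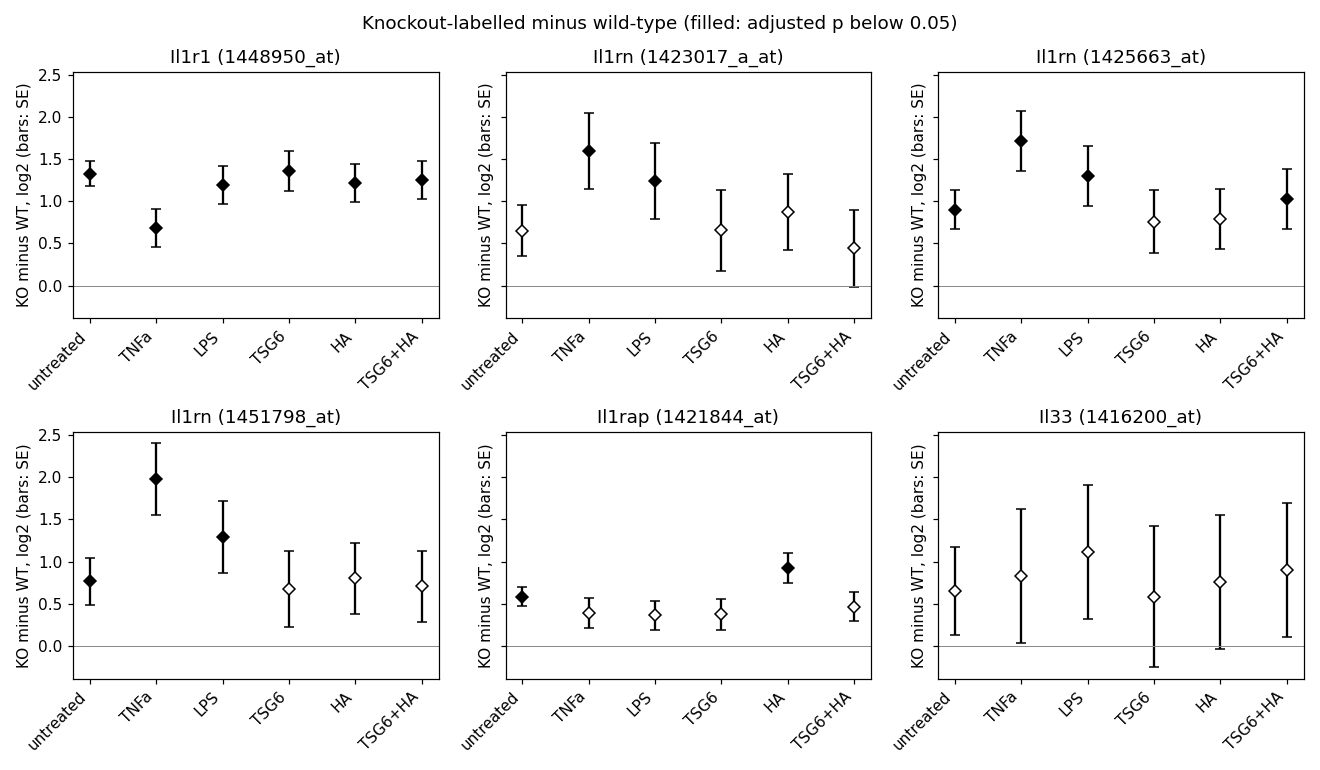
KO minus WT log2 difference (y axis, bars SE) in each of 6 conditions (x axis) for 6 probe sets of Il1r1, Il1rn, Il1rap and Il33; filled symbols have an adjusted p below 0.05. All differences plotted lie above 0, from 0.36 to 1.98, and Il1r1 is filled in all 6 conditions, 5 of which fall below 0 under cyclic loess normalization (not plotted).

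Treatment differences in Il1r1 lay between -0.43 and 0.40 over the 10 responses. KO cultures given TNFa read -0.41, -0.61, 0.00 and -0.24, and those given LPS read 0.29, 0.28, 0.54 and 0.44. All TNFa values were below all LPS values, and the direct difference was -0.71 ± 0.18 (SE), 1.63-fold (adjusted p = 0.0221, limma). Leaving out TNFa replicate 1 or 2, or LPS replicate 3 or 4, ended that call, with differences between -0.69 and -0.61, as did a fit on the arrays below the 18S limit (-0.62, adjusted p = 0.277). Blocked on culture set, it was the same -0.71 with an adjusted p of 2.29e-06.

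Against untreated KO cultures the TNFa difference in Il1r1 was -0.43 ± 0.16 (SE, adjusted p = 0.0709, limma). In the blocked fit the same -0.43 passed (adjusted p = 0.000169). In WT cells the TNFa difference had the other sign, at 0.21 ± 0.22 (adjusted p = 0.994), or 0.27 (adjusted p = 0.292) with the block. The difference between the genotypes in this response was -0.64 (adjusted p = 0.574), and with the block -0.70 ± 0.14 (adjusted p = 0.00334), where 1.72% of all probe sets passed. LPS gave 0.40 ± 0.22 in WT cells (adjusted p = 1), and 0.46 ± 0.11 with the block (adjusted p = 0.016), beside 2.2% of all probe sets.

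Il1rap, the accessory chain shared by the IL-1 and IL-33 receptors, was raised by TNFa. At 1421844_at the KO TNFa cultures read 0.25, 0.54, 0.53 and 0.52, above all 8 untreated cultures, which ran from -0.34 (median -0.08) to 0.13. The rise was 0.56 ± 0.12 (SE), 1.47-fold (adjusted p = 0.00136, limma). It stayed past the threshold in all 18 alternatives run for it, with adjusted p from 7.1e-05 to 0.0424 (limma). None of these left out a single untreated KO culture. Of the endothelial markers 0 of 10 genes passed under TNFa in KO cells. Of the 18 myeloid genes 2 rose, Coro1a (1.07) and Csf1r (0.84), and of the 8 neutrophil genes 2, Camp (0.92) and S100a8 (1.46). The myeloid mean was -0.11 in untreated and 0.07 in TNFa-treated KO cultures, and the part of these markers was not tested.

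At 1442614_at the KO TNFa cultures read 0.53, 0.34, 0.37 and 0.24, again above all untreated cultures, whose highest was 0.16. That rise was 0.38 ± 0.09 (adjusted p = 0.00313, limma), and it was lost within either culture set alone. At 1421843_at it was 0.72 ± 0.22 (adjusted p = 0.0232), with overlapping groups, and the call was lost in 8 of 19 alternatives (adjusted p up to 0.334), among them those without TNFa replicate 1 or 2. At 1449585_at and 1439697_at the differences of 0.43 (adjusted p = 0.0969) and -0.09 (adjusted p = 0.67) did not pass, so the probe sets of the gene differed in call.

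In WT cells 1421844_at rose by 0.76 ± 0.17 (SE) under TNFa, 1.69-fold (adjusted p = 0.00675, limma). The TNFa pair read 0.50 and -0.36, both above the untreated cultures, which read -0.52, -0.71, -0.74, -0.64 and -0.82. Aif1 and Camp rose in the same comparison. The call rests on TNFa replicate 1: without it the difference was 0.33 (adjusted p = 0.519). The other 4 Il1rap probe sets did not pass in WT cells. Under LPS the pair read -0.27 and -0.22, above the untreated cultures too, but the difference of 0.44 ± 0.17 missed the threshold (adjusted p = 0.461).

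Between the genotypes, 1421844_at was higher in untreated KO cells by 0.59 ± 0.12 (adjusted p = 8.55e-05, limma) and under HA by 0.92 ± 0.18 (adjusted p = 0.000122). Under cyclic loess these were 0.12 (adjusted p = 0.471) and 0.40 (adjusted p = 0.13). The other 4 conditions and the other 4 probe sets did not pass. Il1a and Il1b differed little between untreated genotypes, with 95% intervals of -0.22 to 0.16 and of -0.28 to 0.29 for the difference, and Il33 had one of -0.41 to 1.71.

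The genotypes' responses were also compared directly, over all members. No member probe set passed for TNFa (0.601% of all probe sets), LPS (0.123%), TSG-6 (0.0286%), HA (0.0114%) or TSG-6 with HA (0.109%), and the smallest adjusted p was 0.574 (limma). At an unadjusted p below 0.05 (limma), 2 of 65 did, both for TNFa, where 2311 of all 34958 probe sets passed likewise. For Il1rn under TNFa the difference was 1.21 at 1451798_at, in the direction of a smaller fall in KO cells. The combined treatment differed from its parts at no member, nor did any member pass there at an unadjusted p below 0.05 (limma). Of all probe sets, TSG-6 with HA differed from HA at 0.00286% in WT and 1.52% in KO cells, and from TSG-6 at 0% in both.

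Levels over the 12 groups followed from these comparisons. Il1r1 was highest in KO cells given LPS (mean 0.39 ± 0.12 SD) and lowest in untreated WT cells (-1.21 ± 0.30). In its order, KO TNFa stood apart from untreated KO above it and from WT LPS below it by more than both SDs, and the other 9 pairs of neighbours did not. Il1rn at 1451798_at was highest in untreated KO cells (0.75 ± 0.51) and lowest in WT cells given TNFa (-1.61 ± 0.99), with no pair of neighbours apart by more than both SDs. Il1rap at 1421844_at was highest in KO cells given TNFa (0.46 ± 0.14), apart from the next group by more than both SDs. Il33 was highest in KO cells given LPS (0.76 ± 0.88) and lowest in WT cells given TNFa (-0.80 ± 0.88), and none of its neighbours differed beyond their spread.

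Other genes of the pathway were described from lists chosen with earlier results of these data known. Of 14 other IL-1 family ligands and receptors, 1 rose in WT and 3 in KO cells under TNFa. With 1 probe set per gene, TNFa called 2.56% of all genes in WT and 14% in KO cells, so nothing is read from these counts. Il18bp, the secreted binder of IL-18, rose by 0.71 ± 0.19 in WT (adjusted p = 0.0363, limma) and by 1.64 ± 0.14 in KO cells (adjusted p = 3.99e-11). Il1f6, which encodes IL-36 alpha, rose by 0.69 and Il18rap, a chain of the IL-18 receptor, by 0.63 in KO cells. The median over the list's 19 probe sets was 0.08 in WT and 0.09 in KO cells, against 0.00 and 0.01 over all probe sets.

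Of 15 inflammasome and processing genes, Gsdmd, the pore-forming gasdermin D, rose in both genotypes under TNFa, by 1.01 ± 0.16 in WT (adjusted p = 5.31e-05, limma) and 1.53 ± 0.11 in KO cells (adjusted p = 1.36e-12). In KO cells 5 rose and 1 fell, where 14% of genes passed with 1 probe set per gene, the rises including the sensor Nlrp3 (0.91), the adaptor Pycard (0.64) and the IL-1 beta protease Casp1 (0.79). Under LPS none of the 15 passed in either genotype. Between untreated genotypes Casp1 was lower in KO cells, with a difference of -4.93 ± 0.17 (adjusted p = 2.58e-22), while Pycard was higher by 1.23 ± 0.12. Pycard had a difference of -0.57 under TSG-6 and -0.67 under TSG-6 with HA in KO cells, and of -0.73 under both in WT cells, each past the threshold.

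Of 18 shared signalling genes none passed in WT cells under TNFa, while 4 rose and 1 fell in KO cells. These 18 genes are read by 53 probe sets, of which 8 were called, against 12.5% of all. Irak3, an inhibitory kinase-like protein of the pathway, rose by 0.96 ± 0.19 (adjusted p = 0.000333, limma) and Myd88 by 0.29, and Peli2, a ubiquitin ligase, fell by 0.72. Between untreated genotypes Sigirr, an inhibitory receptor of the family, was lower in KO cells, with a difference of -2.92 ± 0.07 (adjusted p = 9.41e-27), and Il18 was higher by 2.17 ± 0.11. Of the 14 other family genes 3 were higher and 3 lower there, and of the 18 signalling genes 6 and 7, in a comparison that called 33.8% of all probe sets. Of the probe sets of these lists 7 of 19 and 20 of 53 were called.

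Of 25 genes known as IL-1 targets in fibroblasts, TNFa raised 16 in WT and 20 in KO cells, and LPS 18 and 10. With 1 probe set per gene, TNFa called 2.56% of all genes in WT and 14% in KO cells, and LPS 1.19% and 1.79%. TNFa and LPS raise many of the same genes by their own receptors, so these counts do not show IL-1 action. Among them Cxcl2, a chemokine for neutrophils, rose by 3.55 ± 0.18 in WT and 2.89 ± 0.13 in KO cells under TNFa, and Tnfaip3, a brake on NF-kB, by 2.30 and 2.49. The list's median difference under TNFa was 1.15 in WT and 0.81 in KO cells, against 0.00 and 0.01 over all probe sets. In the untreated comparison 18 were higher and 3 lower in KO cells, where 37.6% of all genes passed. The LPS response of 8 of the 25 was smaller in KO than in WT cells, and of none larger, where 0.214% of all genes passed. The list median there was -0.59, against 0.00 over all probe sets.

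Genes whose pattern was most like each member's were found by Pearson r over the 42 arrays, which share genotype and culture set, so r describes those differences too. Il1r1 was most like Emb (0.95; 0.81 within 15 WT and 0.72 within 27 KO arrays), Arhgef17 and Il16. Il33 was most like Igfbp4 (0.92; 0.94 and 0.92 within the genotypes), Tnmd and Srpx. Il1rn was most like Gas6 (0.91; 0.88 and 0.83), Ndrg3 and Tgfbr2, and Il1rap, at 1421843_at, like Gnptab (0.90; 0.92 and 0.87), Nadk and Rnf14. The closest to Il1b were Lce1m (0.72) and Ccl3 (0.71), and the closest to Il1a were Lgals12 (0.71; 0.35 within WT and 0.76 within KO arrays) and Cacnb1 (0.70).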

How the data were processed

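The authors deposited 1 table of log2 expression values, 45101 probe sets by 42 one-colour Affymetrix arrays. The submitters' processing notes name RMA and no version of it. Each probe set had been centred on its median over the arrays (largest absolute median 5e-07), so no absolute level is known. The base of the logarithm is not stated and was taken as 2, since no probe set spanned more than 9.81. Precision is limited by how few arrays a group has.

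The 34958 probe sets with 1 gene were kept, of which 34754 matched the gene table by gene number. Another 932 list several genes and 9211 list none. Values were fitted in limma 3.58.1 (R 4.3.3, lmFit and eBayes without trend) with a mean for each of 12 groups, and p-values were adjusted by Benjamini-Hochberg within each of 27 comparisons, at a threshold of 0.05. Comparisons that use the same untreated cultures share controls. The fit was tested on simulated data. Figures used matplotlib 3.10.9.

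Culture sets were found from probe sets of other genes whose arrays had an empty gap of at least 1 log2 that left every group on both sides: all 33 such probe sets gave 1 split in WT cells, and 12 of 13 in KO cells. The members and lists were chosen with earlier results of these data known. Every member probe set is reported. From each list up to 4 genes with the smallest adjusted p are named, and for each member up to 3 genes of highest Pearson r, taken at the probe set with the largest SD that does not follow the 18S signal. Alternatives covered normalization, choice of probe sets, variance settings, array weights, culture sets, 18S signal, a replicate block and leaving out single arrays. The 8 untreated KO arrays were never left out 1 at a time. A filter on dim probe sets cannot be made on centred values, and one on SD was run instead.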

Additional observations from a re-analysis of the deposited data

Results flagged for a closer look

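Of 78 pairs of member probe set and group with 4 to 10 arrays, 2 held an array far from the others of its group. Chance alone flags about 1 in 20 groups. At Il1rap 1421844_at, KO TNFa replicate 1 read 0.252422, below the other 3 cultures, of which the nearest read 0.519156. It still lay above every untreated KO culture. At Il1rap 1449585_at, KO untreated replicate 8 read -0.840652, and the nearest of the other 7 read -0.0769558. That array had an 18S value of 3.87, and the part of this in its reading was not tested.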

How the results depend on the processing

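Results named one by one were refitted under 312 combinations of result and alternative, besides leaving out arrays: 251 kept direction and side of the threshold, 56 kept direction but lost the threshold, and 5 changed sign. Leaving out 1 array at a time, untreated KO cultures excepted, gave 146 values, of which 109 kept both and 37 lost the threshold. The 5 that changed sign were Il1r1 1448950_at between the genotypes under cyclic loess: -0.05 (value -0.04753) untreated, -0.65 (-0.6528, adjusted p = 0.00747, limma) under TNFa, -0.19 (-0.1905) under LPS, -0.18 (-0.1821) under HA and -0.00175 under TSG-6 with HA. Cyclic loess here uses the centred value as its level axis, so it bends arrays by how far a probe set stands from its own median. Whether that accounts for the change of sign was not tested.

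The number of member genes called moved as follows, the main count first. For WT TNFa it was 2, and 0 under quantile normalization, 1 with 1 probe set per gene, 0 with only the groups compared, 0 in culture set b alone and 1 without high-18S arrays. For KO TNFa it was 1, and 2 under quantile normalization, with only the groups compared, in culture set a alone, in culture set b alone and in the added fit of both block and 18S limit, against 4 with the culture set as a block. For KO LPS it was 0, and 2 under quantile normalization, 1 under cyclic loess, 1 with 1 probe set per gene, 1 without the probe sets of smallest SD, 2 with array weights, 1 with the culture set block, 2 without high-18S arrays and 2 in the added fit. For WT LPS it was 0, and 1 with the culture set block. For KO TSG-6 it was 0, and 1 under quantile normalization, array weights, the culture set block and the added fit. For KO TSG-6 with HA it was 0, and 1 under quantile normalization, cyclic loess, array weights, the culture set block and culture set b alone. For the genotype difference in the TNFa response it was 0, and 1 with the culture set block. The added fit was chosen after seeing the data.

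Between the genotypes the count was 3 in untreated cells and 1 under cyclic loess. It was 2 under TNFa, Il1rn and Il1r1, and 1 with only the groups compared, Il1rn. Under quantile normalization both lost their calls, and the count of 1 there was Il1rap (1421844_at, 0.47, adjusted p = 0.0484, limma). It was 2 under LPS, and 1 under quantile normalization, 0 under cyclic loess and 1 without high-18S arrays. It was 1 under TSG-6 and 0 under cyclic loess. It was 2 under HA, and 0 under cyclic loess and 1 with 1 probe set per gene. It was 2 under TSG-6 with HA, and 1 under quantile normalization, 1 with 1 probe set per gene, 1 with array weights, 1 with only the groups compared, 0 under cyclic loess and 0 without high-18S arrays. KO TNFa against LPS gave 2, and 1 with only the groups compared, in culture set a alone, in culture set b alone and without high-18S arrays. The causes were not tested.

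Leaving out 1 array at a time, the counts ran from 1 to 2 for WT TNFa, 0 to 1 for WT TSG-6 with HA, 1 to 2 for KO TNFa, 0 to 2 for KO LPS, 0 to 1 for KO TSG-6 with HA, 1 to 2 between the genotypes under TNFa, LPS and TSG-6 with HA, and 0 to 2 for KO TNFa against LPS. Untreated KO cultures were not among those left out.

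Replicate numbers were not taken to pair the samples, since not every correlation was above 0.1: same-numbered arrays of different groups deviated together with correlations from -0.619 to 0.678 in WT and from -0.247 to 0.685 in KO cells. The medians were 0.451 and 0.231, against -0.365 and -0.0636 for different numbers. For arrays of 1 culture set the medians were 0.491 and 0.0678, so in KO cells the number tracked the deviations more than the set did. With the replicate number as a block, the counts were 1 for WT LPS (main 0), 2 for KO TNFa (main 1), 3 for KO LPS (main 0), 2 for KO TSG-6 with HA (main 0) and 1 for the genotype difference in the TNFa response (main 0). This block sets treated cultures only against untreated ones whose number recurs among them. Those were replicates 1 to 4 in KO and 1 and 2 in WT cells, all in set a. Every treated group held both sets, so these counts mix treatment with culture set and nothing is read from them. Treated groups of 2 to 4 arrays limit every comparison, and a centred value gives no signal over background.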
